A study of Mus musculus with 14 samples.

Results

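Killer lymphocytes store serine proteases called granzymes in secretory lysosomes and release them, together with the pore-forming protein perforin, onto the cell they attack. Genes of this kind were taken here by symbol, by a rule that uses no measured value although earlier results of these data were known, namely the granzymes Gzma, Gzmb, Gzmc, Gzmk and Gzmm, the perforin gene Prf1, and the granule components Nkg7, Srgn, Ctsw and Lamp1. They make up 10 of the 50508 genes of each deposited count table, and all 10 passed the filter on low counts in both tables. The study concerns αβ innate-like T cells with killer features, called ILTCk, in mice. It set thymic ILTCk progenitors (ILTCkP) against CD8 single-positive thymocytes (CD8SP), and NK1.1+ ILTCk and NK1.1- ILTCk against PD1+ conventional T cells (PD1+ Tconv), with 2 bulk RNA-seq libraries in each of 5 groups. The 4 single-cell libraries of the series were not analysed here.

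Both thymic groups came from C57BL/6 mice, and the labels name no treatment. ILTCkP were gated as CD4-negative or dull and CD8α-negative or dull cells that did not bind the CD1d/PBS-57 tetramer, and the rest of that gate is not given in the sources used here. The other 3 groups are labelled "retrogenic", a term for mice whose bone marrow was given a T cell receptor gene by retrovirus, and the labels do not name the receptor or the host. NK1.1+ ILTCk were sorted from tumours as CD45+ TCRβ+ CD8α+ cells lacking TCRγδ, CD4 and PD-1 and bearing NK1.1, and PD1+ Tconv by the same gate with PD-1 present and NK1.1 absent. For NK1.1- ILTCk neither gate nor tissue is given in the sources used here, and one label field calls both ILTCk groups "ILTCkP" where their titles say ILTCk. The 3 groups share a count table, called the tumour table here. Replicates are labelled biological, while ages, and whether the 2 replicates of a group came from separate animals, are not stated, so the p-values reflect no more than how far these libraries scatter.

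Granzyme A and granzyme K cut after basic residues, granzyme B cuts after aspartate and activates caspases, and granzyme M prefers methionine. Granzyme C is encoded in the same mouse gene cluster as granzyme B and can kill target cells without caspases. Perforin opens the target membrane. Serglycin, from Srgn, is the proteoglycan on which granzymes and perforin are packed, Nkg7 encodes a granule membrane protein needed for efficient degranulation in mice, Ctsw encodes cathepsin W, a cysteine protease of killer lymphocytes, and Lamp1 encodes the lysosomal membrane protein that reaches the cell surface on degranulation. Lamp1 is also made by macrophages and most other cells.

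In the GRCm38 gene models Gzmb (chromosome 14, 56258838 to 56262260) and Gzmc (chromosome 14, 56231441 to 56234656) lie in one gene cluster on the minus strand, and Gzma (chromosome 13, 113093825 to 113100981) and Gzmk (chromosome 13, 113171608 to 113225908) lie near each other on the minus strand. The promoters of these 4 genes are shown because Gzmk and Gzmc had the lowest and the highest fold change of the members in NK1.1+ ILTCk over PD1+ Tconv, while Gzmb and Gzma were abundant in all the tumour groups. The sequences are from RefSeq (build GRCm38.p6, minus strand, written 5′ to 3′), each 300 bases around the RefSeq start of the gene: Gzmb at chr14:56262285-56262584, Gzmc at chr14:56234608-56234907, Gzma at chr13:113100932-113101231 and Gzmk at chr13:113180916-113181215. The RefSeq starts need not be those of the gene models. The Gzmk window lies inside the Gzmk gene model, away from its 5′ end at 113225908, and the Gzmb window lies wholly upstream of the Gzmb gene model. Capitals mark matches, on either strand, to TGTGGT (RUNX), TGANTCA (AP-1), TGACGT (the CRE core) and AGGTGT (T-box).
Gzmb: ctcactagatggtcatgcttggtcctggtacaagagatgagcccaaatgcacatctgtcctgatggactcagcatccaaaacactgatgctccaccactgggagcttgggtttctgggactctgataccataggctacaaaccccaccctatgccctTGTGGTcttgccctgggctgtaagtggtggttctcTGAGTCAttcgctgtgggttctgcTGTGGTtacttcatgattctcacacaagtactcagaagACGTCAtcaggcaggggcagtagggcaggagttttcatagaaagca
Gzmc: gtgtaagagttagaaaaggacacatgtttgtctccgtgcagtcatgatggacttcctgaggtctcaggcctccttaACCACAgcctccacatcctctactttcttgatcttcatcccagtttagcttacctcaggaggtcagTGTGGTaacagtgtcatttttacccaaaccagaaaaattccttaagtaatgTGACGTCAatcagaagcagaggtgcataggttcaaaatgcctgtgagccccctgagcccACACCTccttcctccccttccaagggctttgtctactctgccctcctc
Gzma: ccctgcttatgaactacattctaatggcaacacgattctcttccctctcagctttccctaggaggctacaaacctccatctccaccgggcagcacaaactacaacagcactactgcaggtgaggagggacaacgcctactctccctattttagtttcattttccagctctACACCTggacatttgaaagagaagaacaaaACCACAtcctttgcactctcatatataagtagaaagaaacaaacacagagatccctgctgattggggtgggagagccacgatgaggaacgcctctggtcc
Gzmk: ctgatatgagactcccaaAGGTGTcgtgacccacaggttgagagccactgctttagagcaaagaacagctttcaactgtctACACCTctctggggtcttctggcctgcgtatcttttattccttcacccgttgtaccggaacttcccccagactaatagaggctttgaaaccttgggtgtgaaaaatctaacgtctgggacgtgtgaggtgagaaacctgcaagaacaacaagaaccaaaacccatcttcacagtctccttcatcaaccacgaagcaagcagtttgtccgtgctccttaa
Gzmb held 2 RUNX matches, 1 AP-1 match and 1 CRE core match, Gzmc held 2 RUNX matches, 1 T-box match and 2 CRE core matches that overlap each other, Gzma held 1 RUNX and 1 T-box match, and Gzmk held 2 T-box matches. Of 32817 mouse promoters of this length, 16.8% held the RUNX letters, 7.81% the AP-1 letters, 7.51% the CRE core and 13.7% the T-box letters. The 9 members with an entry in the promoter table had 11 promoter windows. Counting a gene if any of its windows matched, 8 held a RUNX match, 1 an AP-1 match, 4 a CRE core match and 5 a T-box match. The shares above count single windows, so the gene counts are not on the same footing. A match is a description of the letters only.

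Counting uncertainty between near-identical genes was small for the members. Of the 845 stretches of 50 bases in the Gzmc transcript, 4.14% also occur in Gzmd, Gzme or Gzmg, and no such stretch of the other 9 members occurs in another gene. Whether reads were counted by strand is not given in the sources used here: 249 of the 2675 exon bases of Lamp1 overlap Grtp1 on the other strand, which had 7 to 37 counts in thymic and 78 to 296 counts in tumour libraries, and 9 exon bases of Ctsw overlap Fibp.

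Library totals lay between 27826979 and 32097301 counts in the thymic table and between 16530085 and 28097845 in the tumour table. The sorts left their marks: Klrb1c, the gene of NK1.1, stood at 309 and 68.5 CPM (read counts per scaled library size) in NK1.1+ ILTCk, 29.9 and 12.4 CPM in NK1.1- ILTCk, against 39.5 and 2.35 CPM in PD1+ Tconv. Pdcd1, the gene of PD-1, was at or below 29.2 CPM in all 4 ILTCk libraries of this table and at 752 and 518 CPM in PD1+ Tconv. In the thymus Cd8a stood at 14.6 and 34.8 CPM in ILTCkP, against 2115 and 1840.4 CPM in CD8SP. The tumour libraries also held RNA of other cells. The mean of 6 T cell genes (Cd3d, Cd3e, Cd3g, Trac, Trbc1 and Trbc2) was 483 and 95.3 CPM in NK1.1+ ILTCk, 236 and 172 CPM in NK1.1- ILTCk, against 742 and 501 CPM in PD1+ Tconv. The 14 macrophage markers, all detected in every tumour library, summed to 9017 and 24697 CPM in NK1.1+ ILTCk, 3872 and 3689 CPM in NK1.1- ILTCk, against 235 and 1434 CPM in PD1+ Tconv. Salivary and lacrimal gland markers took 22.4% of all counts in PD1+ Tconv replicate 2 and 0.138% to 5.38% in the other tumour libraries, and 9 epithelial markers summed to between 3018 and 12733 CPM. In the thymic libraries the macrophage sum was at most 39.2 CPM and the gland sum at most 0.398 CPM. NK1.1+ ILTCk replicate 2 thus had the least T cell RNA and the most macrophage RNA. For this reason each tumour level is also given as a ratio to the mean of the 6 T cell genes of its library. In bulk RNA, fewer cells of a type and less RNA per cell cannot be told apart.

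**Figure D1:**
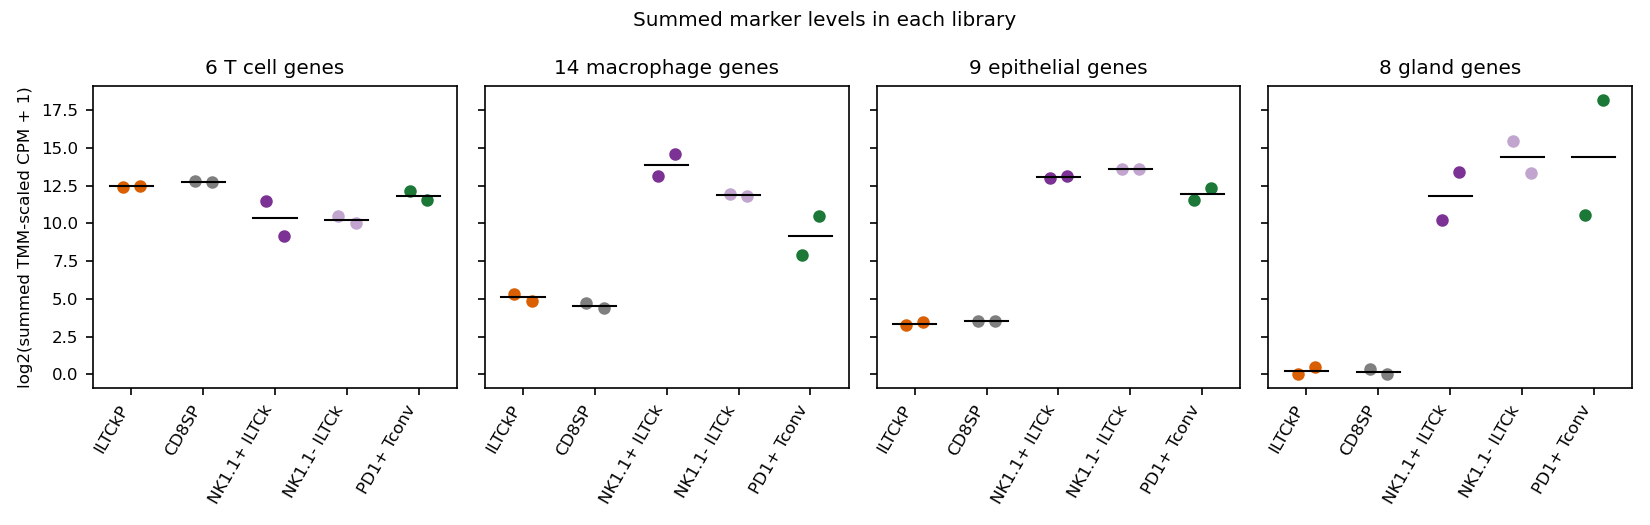
Summed levels of 4 marker lists in each library, as log2 of the summed TMM-scaled CPM plus 1, by group, with a point for each of the 2 libraries and a bar at their mean. The T cell sum was lowest in NK1.1+ ILTCk replicate 2 (572 CPM), where the macrophage sum was highest (24697 CPM), and the gland sum was highest in PD1+ Tconv replicate 2 (299636 CPM).

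In the thymus, ILTCkP carried little granzyme message and large amounts of the granule components Nkg7 and Ctsw. Per kilobase of exon (RPKM from TMM-scaled CPM), Nkg7 stood at 1087 and 883 in ILTCkP, against 987 and 872 in CD8SP. Ctsw stood at 579 and 507 RPKM in ILTCkP, against 482 and 415 RPKM in CD8SP. Both genes ranked between percentiles 99.3 and 99.5 of the detected genes in all 4 libraries, whereas the summed granzyme level was 14.1 and 15.9 RPKM in ILTCkP, against 13.3 and 12.5 RPKM in CD8SP.

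Gzmb had 11.4 and 7.78 CPM in ILTCkP, against 3.17 and 3.48 CPM in CD8SP. Srgn had 398 and 339 CPM in ILTCkP, against 210 and 221 CPM in CD8SP. Both genes were higher in each ILTCkP library than in either CD8SP library. Gzmk had 0 and 4 counts in ILTCkP, against 29 and 91 counts in CD8SP, so that it lay at or near the floor of 3 counts in ILTCkP and was low in CD8SP too. The fitted log2 fold changes were 1.53 ± 0.43 (SE) for Gzmb, 0.77 ± 0.21 for Srgn and -4.80 ± 1.33 for Gzmk, the last being dependent on the prior count used for values near 0.

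None of these reached the threshold in edgeR's quasi-likelihood test, with Benjamini-Hochberg adjusted p of 0.110 for Gzmb, 0.104 for Srgn and 0.111 for Gzmk. Of the 10 members 0 passed, where 4.71% of the 14634 genes tested did, and 3 of 10 (these 3) had an unadjusted p under 0.05, where 22.1% of all genes did. DESeq2 called the same 3 genes (adjusted p of 0.0263, 0.0428 and 0.0112), where it called 13.6% of all genes, and limma-voom called 0 of 10, where it called 5.58%. Of the 10 members, 4 did not overlap between the groups on the CPM scale (Gzmb, Srgn and Ctsw higher, Gzmk lower), where 58.2% of all tested genes did not, 28.8% higher and 29.3% lower. The members' median log2 fold change was 0.18, beside 0.01 over all genes. With shares of this size among all genes, these counts are not read as a result about the members. Without ILTCkP replicate 2 edgeR called 5 of the 10 members and 7019 genes in all, without ILTCkP replicate 1 it called 3 members and 2812 genes, without CD8SP replicate 1 it called 1 member and 670.0 genes, and without CD8SP replicate 2 it called 0 members and 592 genes.

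The other granzymes and perforin overlapped between the thymic groups. Gzma had 5.24 and 7.99 CPM in ILTCkP, against 8.51 and 7.24 CPM in CD8SP. Gzmc had 22 and 63 counts in ILTCkP, against 30 and 13 counts in CD8SP, and Gzmm had 0 and 14 counts in ILTCkP, against 31 and 10 counts in CD8SP. Prf1, at 67.6 and 27.8 CPM in ILTCkP and 79.3 and 58.9 CPM in CD8SP, was the most abundant of the lytic effectors in both thymic groups: its level per kilobase was 3.30 and 1.98 times that of Gzmb in ILTCkP and 13.9 and 9.41 times in CD8SP. Lamp1 had 17.3 and 11.7 CPM in ILTCkP, against 8.72 and 12.4 CPM in CD8SP.

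**Figure D2:**
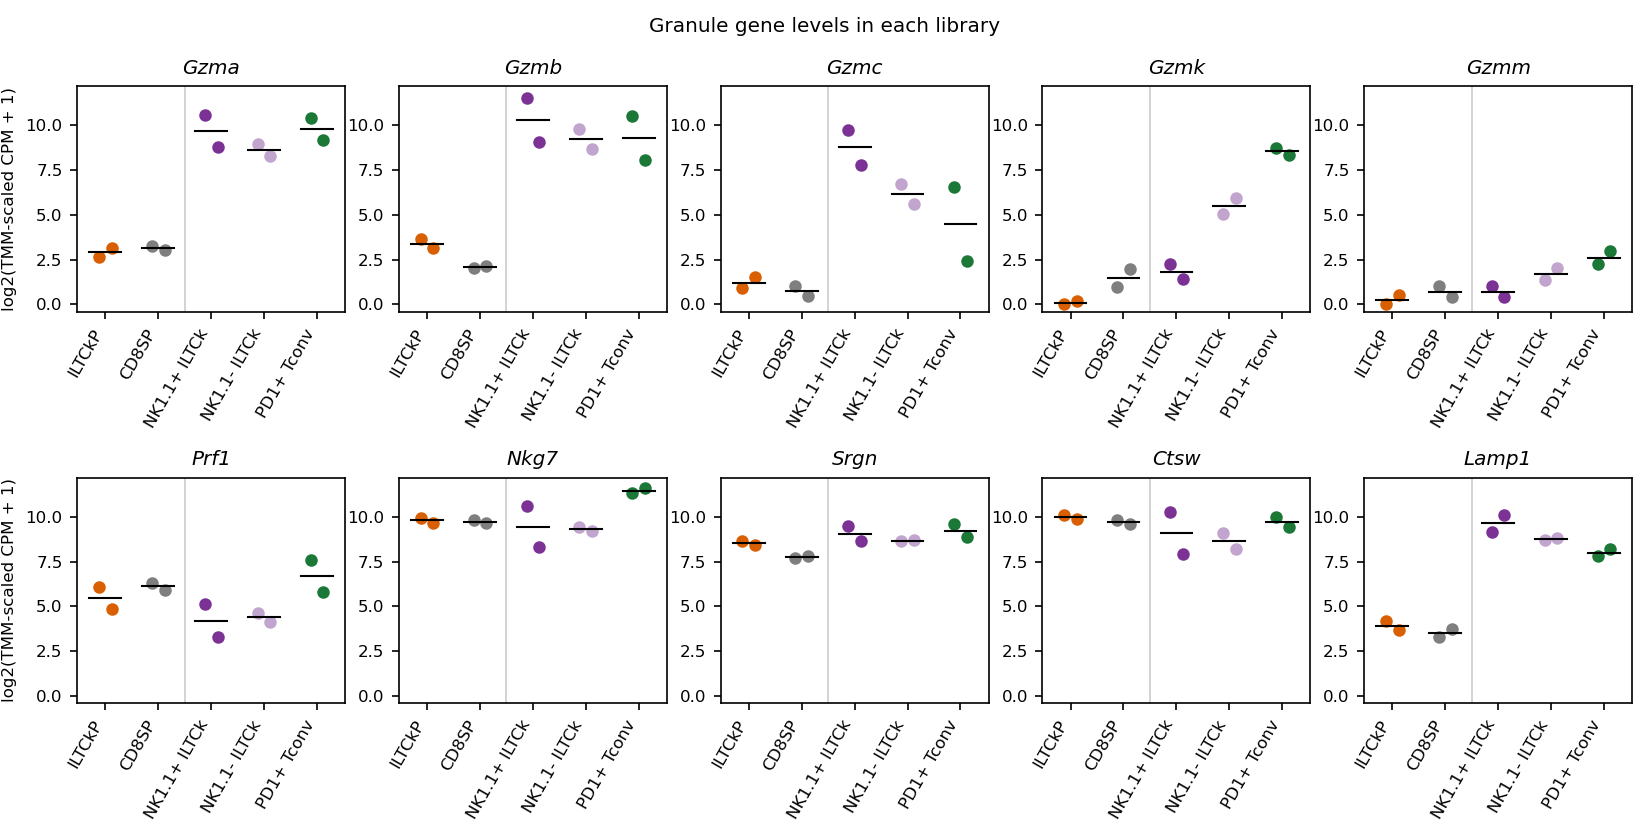
Level of each of the 10 genes in each library, as log2 of TMM-scaled CPM plus 1, with a point per library and a bar at the mean of the 2 libraries of a group. The grey line parts the 2 thymic groups from the 3 groups of the tumour table, which were scaled separately. Gzmk is lowest in ILTCkP among the thymic groups and in NK1.1+ ILTCk among the tumour groups, while Nkg7, Srgn and Ctsw are abundant in all 5 groups.

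In the tumour table Gzmb and Gzma were among the most abundant messages of every group. Gzmb stood at 2068 and 373 RPKM in NK1.1+ ILTCk, 608 and 290 RPKM in NK1.1- ILTCk, against 1030 and 185 RPKM in PD1+ Tconv. Gzma stood at 1505 and 435 RPKM in NK1.1+ ILTCk, 497 and 316 RPKM in NK1.1- ILTCk, against 1379 and 589 RPKM in PD1+ Tconv. In all 6 libraries both genes ranked between percentiles 98.1 and 99.9 of the detected genes. The levels are given beside the thymic ones without a test. The count table, the tissue and the mouse label (C57BL/6 or "retrogenic") change together and cannot be told apart.

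Gzmk was the member that separated the groups most. It had 3.75 and 1.67 CPM in NK1.1+ ILTCk (84 and 37 counts), 32.5 and 60.9 CPM in NK1.1- ILTCk, against 430.0 and 331 CPM in PD1+ Tconv. No library of one group overlapped with another group, and the order was the same relative to the T cell genes: Gzmk was 0.00777 and 0.0175 times their mean in NK1.1+ ILTCk, 0.138 and 0.353 times in NK1.1- ILTCk, against 0.580 and 0.661 times in PD1+ Tconv. The log2 fold change was -7.13 ± 0.68 for NK1.1+ ILTCk over PD1+ Tconv, -3.03 ± 0.56 for NK1.1- ILTCk over PD1+ Tconv, and -4.10 ± 0.59 for NK1.1+ over NK1.1- ILTCk. These 3 comparisons share libraries and are not independent of each other.

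In edgeR's quasi-likelihood test the adjusted p for Gzmk was 0.0725, 0.331 and 0.9998 in these 3 comparisons, in the same order, so none passed. The unadjusted p was 1.36e-05, 0.000916 and 0.000206. DESeq2 called all 3 (adjusted p of 1.16e-29, 4.92e-05 and 2.79e-08), limma-voom called the first alone (adjusted p = 0.0476), and without NK1.1+ ILTCk replicate 1 edgeR called the first (adjusted p = 0.0451, log2 fold change -7.82). With the replicate number as a block edgeR called the first and the second (adjusted p of 0.00231 and 0.0384). Scaled to the 6 T cell genes, Gzmk fell in NK1.1+ ILTCk relative to PD1+ Tconv by 5.63 on the log2 scale (SE 1.44, edgeR adjusted p = 0.00757). With that scaling the log2 fold change was -1.34 ± 1.20 for NK1.1- ILTCk over PD1+ Tconv (edgeR adjusted p = 0.477) and -4.29 ± 1.36 for NK1.1+ over NK1.1- ILTCk (adjusted p = 0.593).

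Gzmc ran the other way. It had 864 and 220.1 CPM in NK1.1+ ILTCk, 106 and 48.6 CPM in NK1.1- ILTCk, against 94.8 and 4.37 CPM in PD1+ Tconv. Both NK1.1+ libraries were above all 4 others, while NK1.1- ILTCk and PD1+ Tconv overlapped in CPM. Relative to the T cell genes Gzmc was 1.79 and 2.31 times their mean in NK1.1+ ILTCk. It was 0.448 and 0.282 times in NK1.1- ILTCk, against 0.128 and 0.00873 times in PD1+ Tconv. No groups overlapped on this ratio. The log2 fold change of NK1.1+ ILTCk over PD1+ Tconv was 3.45 ± 1.34 (edgeR adjusted p = 0.318, DESeq2 0.0332), and it was 2.49 without PD1+ Tconv replicate 2, the library rich in gland RNA, 6.97 without PD1+ Tconv replicate 1, and 2.14 without NK1.1+ ILTCk replicate 1. With the replicate number as a block it was 4.08 (edgeR adjusted p = 0.0397). Scaled to the T cell genes, Gzmc rose in NK1.1+ ILTCk over PD1+ Tconv by 4.91 ± 1.49 (edgeR adjusted p = 0.0349). Scaled to the 3 CD3 genes alone the value was 4.73 with an adjusted p of 0.0642.

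That scaling moves the whole table, since the ILTCk libraries held less T cell RNA: the median log2 fold change over all genes went with it, to 1.84 for NK1.1+ ILTCk over PD1+ Tconv, 1.55 for NK1.1- ILTCk over PD1+ Tconv and 0.30 for NK1.1+ over NK1.1- ILTCk. Set against these medians, Gzmc lay above and Gzmk below in NK1.1+ ILTCk over PD1+ Tconv, while Gzmb (2.22 ± 1.44), Gzma (1.34 ± 1.38), Srgn (1.54 ± 1.37) and Ctsw (0.89 ± 1.35) lay within 1 SE of the median. Of the other members Lamp1 (3.88 ± 1.54) lay more than 1 SE above it, and Prf1 (-1.19 ± 1.17), Gzmm (-1.81 ± 1.49) and Nkg7 (-0.57 ± 1.39) lay more than 1 SE below it, none with a test that passed. The tests set each change against 0 and not against the median, so the distance of a member from the median was not tested. Set against 0, Nkg7, Gzma and Ctsw lay within 1 SE. Prf1, Gzmm and Gzmk lay more than 1 SE below 0, and Gzmb, Srgn, Lamp1 and Gzmc more than 1 SE above. With this scaling 2 of 10 members passed, 1 in each direction, where 3.6% of all genes passed, 3.47% higher and 0.133% lower. For the other pairs of tumour groups 0 of 10 members passed, where 0.16% passed for NK1.1- ILTCk over PD1+ Tconv and 0% for NK1.1+ over NK1.1- ILTCk.

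Gzmb depended on the library and the scale. It had 2970.4 and 536 CPM in NK1.1+ ILTCk, 873 and 417 CPM in NK1.1- ILTCk, against 1479.7 and 266 CPM in PD1+ Tconv. All 3 groups overlapped on this scale, and the log2 fold change of NK1.1+ ILTCk over PD1+ Tconv was 1.01 ± 1.02 (edgeR adjusted p = 0.716), with a value of -0.70 without NK1.1+ ILTCk replicate 1 and 2.74 without PD1+ Tconv replicate 1. Relative to the T cell genes the libraries of a group drew together: Gzmb was 6.15 and 5.63 times their mean in NK1.1+ ILTCk, 3.69 and 2.42 times in NK1.1- ILTCk, against 1.99 and 0.531 times in PD1+ Tconv. The groups did not overlap on this ratio, though the T-cell-scaled test did not pass (edgeR adjusted p = 0.279 for NK1.1+ ILTCk over PD1+ Tconv).

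Gzma followed a like order only on the ratio. It had 1514 and 437 CPM in NK1.1+ ILTCk, 499.8 and 318 CPM in NK1.1- ILTCk, against 1387 and 592 CPM in PD1+ Tconv, and was 3.13 and 4.59, 2.11 and 1.84, and 1.87 and 1.18 times the T cell mean in these groups in the same order. NK1.1+ ILTCk stood above the other groups on the ratio, and NK1.1- ILTCk overlapped with PD1+ Tconv. Gzmm was low in all groups, at 23 and 7 counts in NK1.1+ ILTCk, 54 and 68 counts in NK1.1- ILTCk, against 117 and 86 counts in PD1+ Tconv, with NK1.1+ ILTCk below the others on both scales (log2 fold change over PD1+ Tconv -2.98 ± 0.90, edgeR adjusted p = 0.234, DESeq2 0.0156). Relative to the T cell genes Gzmm was 0.00213 and 0.00331 times their mean in NK1.1+ ILTCk. It was 0.00674 and 0.0180 times in NK1.1- ILTCk, which overlapped with PD1+ Tconv at 0.00502 and 0.0139 times.

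**Figure D3:**
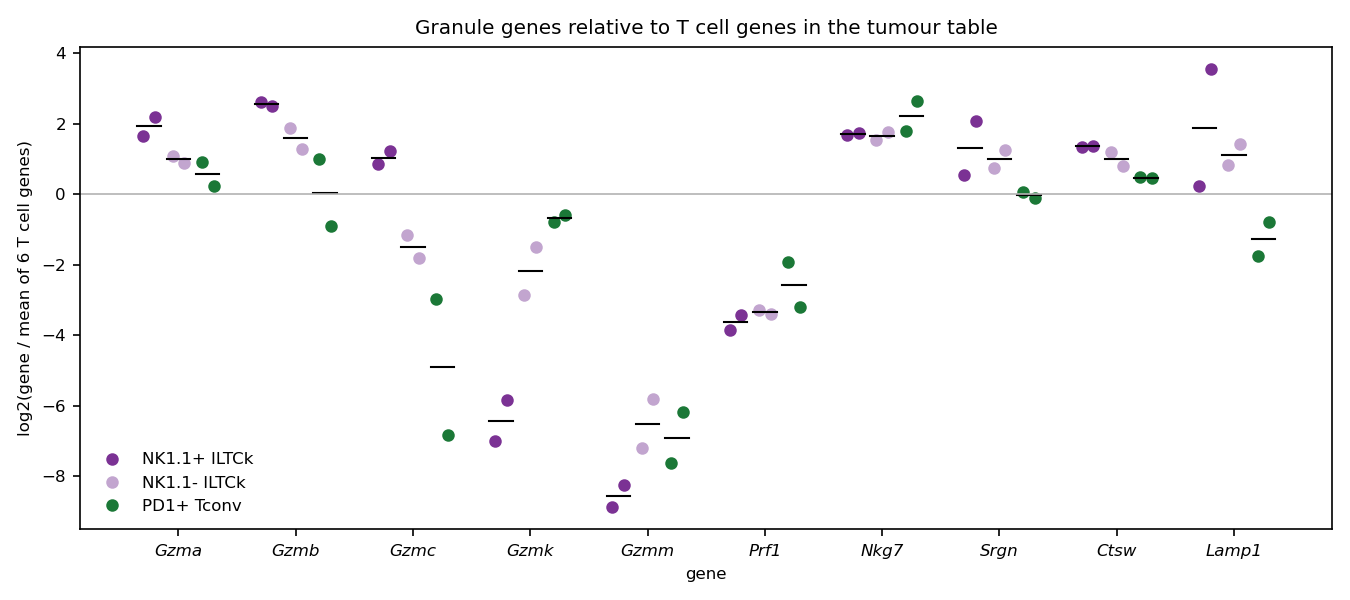
Level of each gene relative to the mean of the 6 T cell genes of the same library, as log2 of the ratio, in the 3 groups of the tumour table, with a point per library and a bar at the mean. Gzmb and Gzmc step down group by group, left to right, Gzmk steps up, and the NK1.1+ ILTCk libraries lie far apart for Lamp1 (1.17 and 11.7 times the T cell mean).

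The balance of granzymes within a library needs no scaling between libraries. Of the summed reads per kilobase of 10 granzyme genes, Gzmk made up 0.0593% and 0.113% for NK1.1+ ILTCk, 1.88% and 6.19% for NK1.1- ILTCk, against 10.9% and 23.3% for PD1+ Tconv. Gzmc made up 21.2% and 23.2% for NK1.1+ ILTCk, 9.50% and 7.68% for NK1.1- ILTCk, against 3.74% and 0.479% for PD1+ Tconv. Neither share overlapped between any 2 of the 3 groups. Gzma and Gzmb together filled most of the rest, with Gzmb at 45.4% and 35.2% for NK1.1+ ILTCk, 48.7% and 41.0% for NK1.1- ILTCk, against 36.3% and 18.1% for PD1+ Tconv, where NK1.1+ ILTCk and PD1+ Tconv overlapped. With 2 libraries in each group the smallest p that an exact two-sided permutation test can give is 0.333, so these shares are described and not tested.

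The ratio of Gzmc to Gzmb, genes of one cluster, per kilobase, was 0.467 and 0.659 for NK1.1+ ILTCk, 0.195 and 0.187 for NK1.1- ILTCk, against 0.103 and 0.0264 for PD1+ Tconv. The other 5 genes of the set of 10 granzymes (Gzmd, Gzme, Gzmf, Gzmg and Gzmn) made up at most 0.370% of the sum in a tumour library, and most of their reads were of Gzmf, with 195 and 80 counts in NK1.1+ ILTCk, 11 and 31 counts in NK1.1- ILTCk, against 195 and 0 counts in PD1+ Tconv. In the thymus Gzmk made up 0% and 0.555% of the granzyme sum in ILTCkP, from 444 and 596 granzyme counts, and 5.42% and 16.6% in CD8SP, from 429 and 456 counts. A low Gzmk share was thus measured in ILTCkP, where it rests on 0 and 4 Gzmk counts, and in NK1.1+ ILTCk. A higher one was measured in both of the groups they were set against. In NK1.1- ILTCk the share (1.88% and 6.19%) was also higher than in ILTCkP and NK1.1+ ILTCk, and it overlapped with that of CD8SP.

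**Figure D4:**
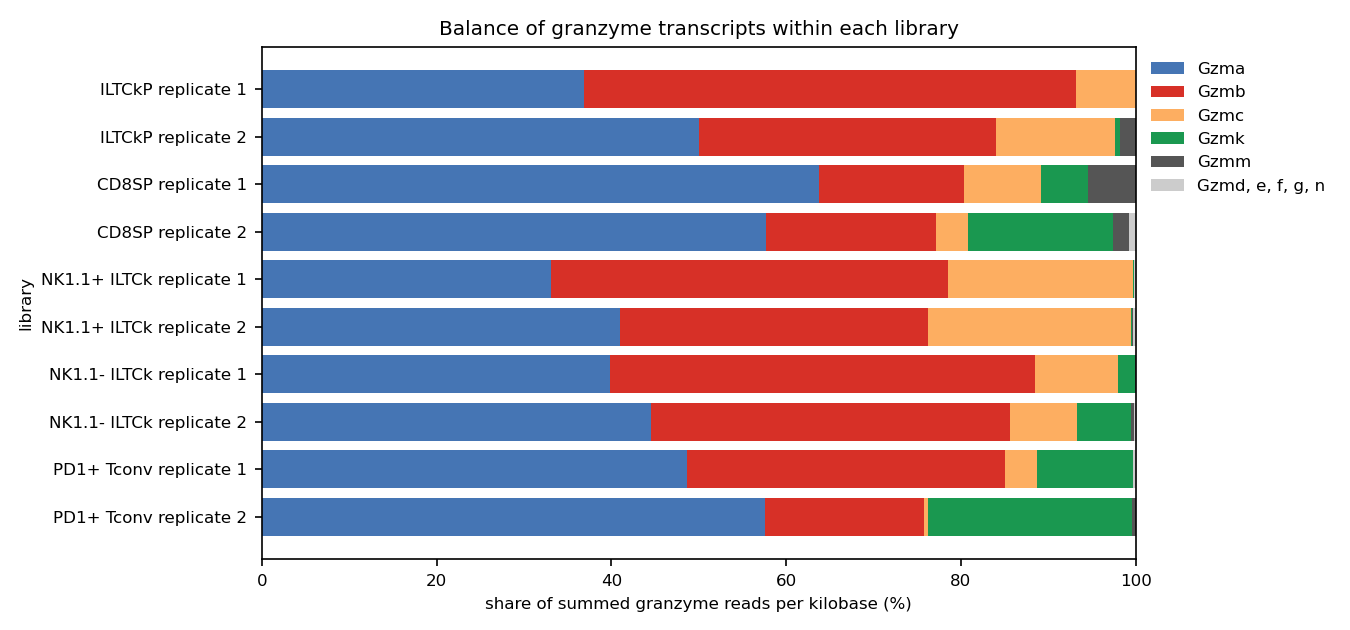
Share of each granzyme gene in the summed reads per kilobase of 10 granzyme genes, in percent, one bar per library. The Gzmk share is at most 0.555% in both ILTCkP and both NK1.1+ ILTCk libraries, 1.88% and 6.19% in NK1.1- ILTCk and 5.42% to 23.3% in CD8SP and PD1+ Tconv. The Gzmc share is 21.2% and 23.2% in NK1.1+ ILTCk.

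The pore-forming message was lower in CPM in the ILTCk groups, unlike Gzmc. Prf1 had 33.7 and 8.79 CPM in NK1.1+ ILTCk, 24.1 and 16.4 CPM in NK1.1- ILTCk, against 193 and 54.1 CPM in PD1+ Tconv. Every ILTCk library lay below both PD1+ Tconv libraries, while the ILTCk groups overlapped. The log2 fold change over PD1+ Tconv was -2.54 ± 0.82 for NK1.1+ ILTCk (edgeR adjusted p = 0.254, DESeq2 0.0299) and -2.61 ± 0.82 for NK1.1- ILTCk (edgeR adjusted p = 0.361, DESeq2 0.0364), and without PD1+ Tconv replicate 1 these values were -1.33 and -1.40. With the replicate number as a block edgeR called both (adjusted p of 0.0175 and 0.0451). Scaled to the T cell genes, the values were -1.19 ± 1.17 for NK1.1+ ILTCk and -0.90 ± 1.16 for NK1.1- ILTCk. Neither passed on that scale (edgeR adjusted p of 0.451 and 0.597). Relative to the T cell genes Prf1 was 0.0697 and 0.0922 times their mean in NK1.1+ ILTCk, 0.102 and 0.0952 times in NK1.1- ILTCk, against 0.261 and 0.108 times in PD1+ Tconv, where PD1+ Tconv replicate 2 comes close to NK1.1- ILTCk replicate 1.

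Set against granzyme B in the same library, Prf1 per kilobase was 0.00630 and 0.00911 times Gzmb in NK1.1+ ILTCk, 0.0153 and 0.0219 times in NK1.1- ILTCk, against 0.0726 and 0.113 times in PD1+ Tconv. The 3 groups did not overlap on this ratio. In the thymic libraries, where Gzmb was low, the same ratio was above 1 throughout.

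Nkg7 too had lower values in every ILTCk library than in PD1+ Tconv on both scales. No adjusted p of it passed in DESeq2, limma-voom or edgeR with the filter on low counts. It had 1551 and 314 CPM in NK1.1+ ILTCk, 683 and 586 CPM in NK1.1- ILTCk, against 2558 and 3123 CPM in PD1+ Tconv, and was 3.21 and 3.30, 2.89 and 3.40, and 3.45 and 6.24 times the T cell mean in these groups in the same order. On the ratio the gap between NK1.1- ILTCk replicate 2 and PD1+ Tconv replicate 1 was small. The log2 fold change over PD1+ Tconv was -1.61 ± 0.74 for NK1.1+ ILTCk and -2.16 ± 0.76 for NK1.1- ILTCk (edgeR adjusted p = 0.388 and 0.380). Without NK1.1+ ILTCk replicate 1 the first of these was -3.17 and without NK1.1+ ILTCk replicate 2 it was -0.87, and scaled to the T cell genes the values were -0.57 ± 1.39 and -0.62 ± 1.40.

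The packing and storage genes stood in a different order on each scale. Srgn had 708 and 404 CPM in NK1.1+ ILTCk, 397 and 411 CPM in NK1.1- ILTCk, against 776 and 461 CPM in PD1+ Tconv. Ctsw had 1214 and 246 CPM in NK1.1+ ILTCk, 540.2 and 298 CPM in NK1.1- ILTCk, against 1028 and 681 CPM in PD1+ Tconv. Relative to the T cell genes both stood higher in every ILTCk library than in PD1+ Tconv: Srgn was 1.47 and 4.24 times their mean in NK1.1+ ILTCk, 1.68 and 2.38 times in NK1.1- ILTCk, against 1.05 and 0.921 times in PD1+ Tconv, and Ctsw was 2.51 and 2.58, 2.28 and 1.73, and 1.39 and 1.36 times in the same order. Srgn was highest on the ratio in the library with the most macrophage RNA, and serglycin is also made by macrophages; the part of that RNA in the value was not tested. No test of either gene passed in edgeR, DESeq2 or limma-voom between tumour groups.

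Lamp1 was highest where the macrophage markers were highest. It had 564 and 1115 CPM in NK1.1+ ILTCk, 419 and 458 CPM in NK1.1- ILTCk, against 221 and 289.6 CPM in PD1+ Tconv, and none of the groups overlapped on this scale. Relative to the T cell genes Lamp1 was 1.17 and 11.7 times their mean in NK1.1+ ILTCk. It was 1.77 and 2.66 times in NK1.1- ILTCk, against 0.298 and 0.578 times in PD1+ Tconv. On that ratio the ILTCk groups overlapped with each other, and both stayed above PD1+ Tconv. The log2 fold change of NK1.1+ ILTCk over PD1+ Tconv was 1.72 ± 0.48 (edgeR adjusted p = 0.211, DESeq2 0.0132), and it was 1.15 without NK1.1+ ILTCk replicate 2. The library with the highest Lamp1 level, NK1.1+ ILTCk replicate 2, also had the highest macrophage sum (24697 CPM), and PD1+ Tconv replicate 1, with the lowest Lamp1 level, had the lowest (235 CPM). The part of macrophage RNA in the Lamp1 values was not tested.

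In counts over the tumour comparisons, edgeR called 0 of the 10 members in each, as it called 0% of all 18091 genes tested. With the replicate number as a block it called 3 of 10 for NK1.1+ ILTCk over PD1+ Tconv, where it called 4.17% of all genes, 2 of 10 for NK1.1- ILTCk over PD1+ Tconv, where it called 1.65%, and 0 of 10 for NK1.1+ over NK1.1- ILTCk, where it called 0%. For NK1.1+ ILTCk over PD1+ Tconv 5 of 10 members had an unadjusted p under 0.05 (Gzmc and Lamp1 higher, Gzmk, Gzmm and Prf1 lower), where 14.3% of all genes did, DESeq2 called the same 5, where it called 7.01%, and limma-voom called Gzmk alone, where it called 0.0166%. For NK1.1- ILTCk over PD1+ Tconv the unadjusted p was under 0.05 for 3 of 10 (Gzmk, Prf1 and Nkg7, all lower), where it was for 11.9% of all genes and 5.91% lower, DESeq2 called Gzmk and Prf1, where it called 3.91% and 1.75% lower, and limma-voom called 0. For NK1.1+ over NK1.1- ILTCk Gzmk was the 1 member with an unadjusted p under 0.05 and the 1 member DESeq2 called, where 3.94% and 0.315% of all genes were, or 1.75% and 0.116% lower, and limma-voom called 0.

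Without regard to a test, 6 of 10 members did not overlap in CPM between NK1.1+ ILTCk and PD1+ Tconv (2 higher, 4 lower), where 41.5% of all genes did not, 20.7% higher and 20.8% lower. Between NK1.1- ILTCk and PD1+ Tconv 8 of 10 did not overlap (1 higher, 7 lower), where 45.8% did not, 23.1% higher and 22.7% lower. Between NK1.1+ and NK1.1- ILTCk 4 of 10 did not (2 higher, 2 lower), where 37.5% did not, 18.6% higher and 18.9% lower. Relative to the T cell genes all 10 members were free of overlap between NK1.1+ ILTCk and PD1+ Tconv, 6 higher and 4 lower, where 46.0% of all genes were, 42.4% higher and 3.62% lower. The 4 lower were Gzmk, Gzmm, Prf1 and Nkg7. On the same ratio 8 of 10 did not overlap between NK1.1- ILTCk and PD1+ Tconv (5 higher, and Gzmk, Prf1 and Nkg7 lower), where 76.3% of all genes did not, 74.4% higher and 1.91% lower. Between NK1.1+ and NK1.1- ILTCk 7 of 10 did not (Gzma, Gzmb, Gzmc and Ctsw higher, Gzmk, Gzmm and Prf1 lower), where 14.2% of all genes did not, 3.37% higher and 10.8% lower. The T cell mean was 483 and 95.3 CPM in the NK1.1+ ILTCk libraries, and all genes, also those of other cells, were divided by it. Whether other genes made by T cells lay apart as often on this ratio was not tested. The members' median log2 fold change was -0.19 for NK1.1+ ILTCk over PD1+ Tconv, -1.11 for NK1.1- ILTCk over PD1+ Tconv and 0.68 for NK1.1+ over NK1.1- ILTCk, beside -0.04, -0.04 and 0.01 over all genes. With the T cell scaling the members' medians were 1.11, 0.47 and 0.42, beside 1.84, 1.55 and 0.30 over all genes.

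**Figure D5:**
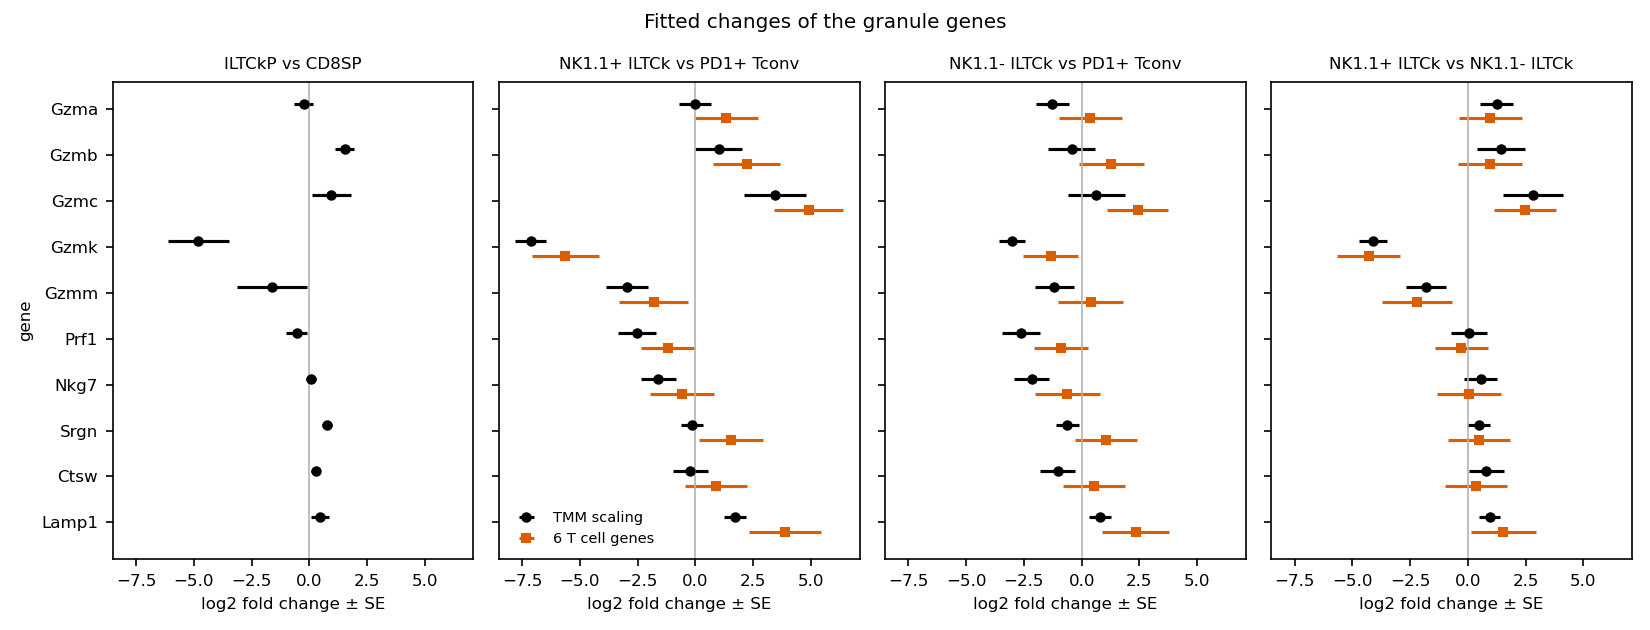
Fitted log2 fold change with its SE for each gene in the 4 comparisons, the first group of each title over the second. Black circles are TMM-scaled fits and orange squares, in the 3 tumour comparisons, are fits scaled to the 6 T cell genes. Gzmk is negative in all panels (-4.80 in the thymus and -7.13, -3.03 and -4.10 in the tumour table), Gzmc is highest in NK1.1+ ILTCk over PD1+ Tconv, and several other genes cross 0 when the scale changes.

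Genes that process granzymes and hold them in check were taken from a list of 15, of which 14 were tested. Where no other scaling is named, edgeR means the main TMM-scaled fit, here and for the lists that follow. For this list and those that follow, the shares of all genes called were 4.71% by edgeR and 13.6% by DESeq2 in the thymus, and 0% by edgeR in each tumour comparison, where DESeq2 called 7.01% for NK1.1+ ILTCk over PD1+ Tconv, 3.91% for NK1.1- ILTCk over PD1+ Tconv and 0.315% for NK1.1+ over NK1.1- ILTCk. In ILTCkP over CD8SP 1 of 14 rose and 0 fell in edgeR: Igf2r, a mannose 6-phosphate receptor that sorts enzymes to lysosomes, stood at 345 ± 48.5 CPM in ILTCkP, against 118 ± 8.15 CPM in CD8SP (SD, n = 2 each; log2 fold change 1.55 ± 0.22, adjusted p = 0.0208). The granzyme-inhibiting serpin genes Serpinb1a and Serpinb6b stood at 5.61 and 18.0 CPM on average in ILTCkP, against 1.36 and 4.59 CPM in CD8SP, with edgeR adjusted p of 0.0821 and 0.0973 and DESeq2 adjusted p of 0.0131 and 0.00283. In the tumour table edgeR called none of the 14, and DESeq2 called 3 in NK1.1+ ILTCk over PD1+ Tconv, all higher, and none in the other 2 pairs. Among them Ctsc, the protease that activates granzymes by trimming their ends, stood at 1262 ± 597 CPM in NK1.1+ ILTCk, against 200.3 ± 120 CPM in PD1+ Tconv (SD, n = 2 each; edgeR adjusted p = 0.166, DESeq2 0.000834). Ctsc is also made by macrophages, whose markers were higher in the same libraries, and their part in it was not tested. Of the 4 listed genes with the smallest main p in this pair, edgeR scaled to the 6 T cell genes called Serpinb1a (adjusted p = 0.00392). Its log2 fold change was 5.89, from 26.7 ± 28.7 CPM in NK1.1+ ILTCk against 2.56 ± 0.0698 CPM in PD1+ Tconv. That fit called 3.47% of all genes higher.

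Genes of granule transport and release were taken from a list of 25, with 22 of them tested for the thymus and 23 for the tumour groups. In ILTCkP over CD8SP 1 rose and 1 fell in edgeR, and DESeq2 called 6 higher and 2 lower. Lyst, a regulator of lysosome size whose loss causes giant granules, fell to 14.1 ± 0.948 CPM in ILTCkP, against 41.4 ± 3.06 CPM in CD8SP (SD, n = 2 each; edgeR adjusted p = 0.0438). Sytl1 and Sytl2, partners of Rab27, stood at 89.6 and 28.3 CPM on average in ILTCkP, against 22.0 and 11.5 CPM in CD8SP (edgeR adjusted p = 0.0675 and 0.0873, DESeq2 0.0001 and 0.0055).

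In the tumour table edgeR called none of the 23. DESeq2 called 1 higher and 2 lower in NK1.1+ ILTCk over PD1+ Tconv, and 0 higher and 1 lower in NK1.1- ILTCk over PD1+ Tconv. Between the ILTCk groups it called 0. The higher one, Stx7, averaged 119 CPM in NK1.1+ ILTCk, 88.6 CPM in NK1.1- ILTCk and 44.1 CPM in PD1+ Tconv. Its log2 fold change was 1.43 ± 0.34 for NK1.1+ ILTCk over PD1+ Tconv (edgeR adjusted p = 0.166, DESeq2 0.00379). Rab27a, the small GTPase that docks lytic granules at the membrane, stood at 8.90 ± 1.94 CPM in NK1.1+ ILTCk, 11.3 ± 1.05 CPM in NK1.1- ILTCk and 61.6 ± 11.6 CPM in PD1+ Tconv (SD, n = 2 each). Its log2 fold change over PD1+ Tconv was -2.79 ± 0.42 for NK1.1+ ILTCk (edgeR adjusted p = 0.0875, DESeq2 9.6e-08) and -2.44 ± 0.41 for NK1.1- ILTCk (edgeR adjusted p = 0.331, DESeq2 2.13e-05), and -1.01 and -0.81 after scaling to the T cell genes. DESeq2 called Lyst too in NK1.1+ ILTCk over PD1+ Tconv (15.0 ± 3.07 against 44.8 ± 16.7 CPM, adjusted p = 0.0245), where after T cell scaling its value was 0.26.

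Among transcription factors known to act on granzyme and perforin genes, 12 of 12 were tested. Tbx21, which encodes T-bet, rose in ILTCkP to 39.9 ± 11.3 CPM, against 3.91 ± 0.470 CPM in CD8SP (log2 fold change 3.35 ± 0.38, edgeR adjusted p = 0.0112), and its relative Eomes fell to 1.26 ± 0.00330 CPM in ILTCkP, against 7.80 ± 2.08 CPM in CD8SP (-2.63 ± 0.48, adjusted p = 0.0401; SD, n = 2 each). No other of the 12 passed in edgeR. In the tumour table Eomes stood at 2.37 ± 1.38 CPM in NK1.1+ ILTCk, 6.97 ± 0.134 CPM in NK1.1- ILTCk and 106 ± 39.0 CPM in PD1+ Tconv, with a log2 fold change of -5.48 ± 0.61 for NK1.1+ ILTCk over PD1+ Tconv (edgeR adjusted p = 0.0725, DESeq2 4.05e-17) and -3.93 ± 0.56 for NK1.1- ILTCk over PD1+ Tconv (edgeR adjusted p = 0.285, DESeq2 1.93e-08). Scaled to the T cell genes, the 2 Eomes values were -3.98 and -2.27 (edgeR adjusted p of 0.0675 and 0.373). DESeq2 called 1 of the 12 higher (Zeb2) and 2 lower (Eomes and Tcf7) in NK1.1+ ILTCk over PD1+ Tconv. In CPM, Eomes, Tcf7 and Gzmk were thus lowest on average in NK1.1+ ILTCk and highest in PD1+ Tconv. Scaled to the T cell genes, the Tcf7 log2 fold change of NK1.1+ ILTCk was -0.52 over PD1+ Tconv and -0.86 over NK1.1- ILTCk. On that scale PD1+ Tconv was thus not highest for Tcf7. The main edgeR fit (TMM scaling, low-count filter, no block, all libraries) called none of Eomes, Tcf7 and Gzmk. Other edgeR fits given above called Gzmk.

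Of 5 genes for ligands that kill without granules, Tnfsf10, the gene of TRAIL, rose in ILTCkP to 80.2 ± 32.5 CPM, against 18.2 ± 0.718 CPM in CD8SP (SD, n = 2 each; log2 fold change 2.14 ± 0.37, edgeR adjusted p = 0.0353). No other of the 5 passed in the thymus in edgeR, and none passed in the tumour comparisons in edgeR or DESeq2. Fasl, the gene of Fas ligand, averaged 82.8 ± 67.8 CPM in NK1.1+ ILTCk, 65.7 ± 0.656 CPM in NK1.1- ILTCk and 233 ± 168 CPM in PD1+ Tconv (SD, n = 2 each). Scaled to the T cell genes, its log2 fold change over PD1+ Tconv was -0.14 for NK1.1+ ILTCk and -0.09 for NK1.1- ILTCk.

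Of 18 genes of the lysosome's membrane and lumen, 17 were tested. In the thymus Npc2, a lysosomal cholesterol carrier, fell to 189 ± 3.73 CPM in ILTCkP, against 419.8 ± 30.1 CPM in CD8SP (SD, n = 2 each; -1.15 ± 0.20, edgeR adjusted p = 0.0365), and no other passed in edgeR. In the tumour table edgeR called none and DESeq2 called 5 in NK1.1+ ILTCk over PD1+ Tconv, all higher, among them Lamp2, Cd68 and Slc11a1. Of the 4 with the smallest main p in this pair, edgeR scaled to the 6 T cell genes called Slc11a1 and Cd68 (adjusted p of 0.00200 and 0.0234). That fit called 3.47% of all genes higher. Cd68 and Slc11a1 are prominent macrophage genes, Cd68 stood at 493 ± 318 CPM in NK1.1+ ILTCk, against 45.1 ± 46.5 CPM in PD1+ Tconv (SD, n = 2 each), and the part of macrophage RNA in these values was not tested.

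The genes whose pattern over the 10 libraries lay closest to a member were found by the mean absolute difference in log2(CPM + 1), each gene centred on its own mean, among 9016 genes. For Gzma they included Sema6d (0.38) and Lilr4b (0.43). For Gzmb they were Fgl2 (0.63), Lilrb4a (0.65) and Gzma (0.67), and for Prf1 they were Nlrc5 (0.32), Ikzf4 (0.33) and Bicdl1 (0.34). For Gzmk the closest, Ctla2a (1.23), Ifng (1.23) and Runx2 (1.26), lay farther off than those of the other 3 members. The 2 tables were scaled separately, so a step between thymus and tumour that many genes share weighs in these distances.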

How the data were processed

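The deposited files used here are 2 tables of raw read counts per gene, which the authors made by counting bulk RNA-seq reads, one for the 4 thymic and one for the 6 tumour libraries. The build was mm10 per the submitters' processing notes, and for the bulk tables neither aligner nor counter nor annotation is given in the sources used here. Every column was matched to a sample by its name (0 columns left unmatched). Counts were tested as deposited with edgeR 4.0.16 in R 4.3.3 (filterByExpr, TMM scaling, robust quasi-likelihood F-test), each table on its own and all groups of a table in one fit, with Benjamini-Hochberg adjustment over all genes tested and a threshold of 0.05. DESeq2 1.42.0, limma-voom (limma 3.58.1), other scalings, other filters, a replicate block and leaving out each library were alternatives, and the closing section gives their effect. Levels are CPM on TMM-scaled library sizes, and RPKM divides CPM by the union of exons in GENCODE M21 (GRCm38), which may not be the annotation counted on. Ratios to T cell genes use the mean CPM of 6 genes. The floor is 3 counts per library, which covers counting error only.

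The 10 genes, the other gene lists and the tests were chosen with earlier results of these data known. All 10 genes are named whatever their result, and from each pathway list its counts with up to 4 members of smallest edgeR p per comparison. Some genes that this rule names are not reported here. Replicates are labelled biological. The labels do not say what a replicate number marks. In the tumour table the deviations of same-numbered libraries from their group means correlated at 0.393, 0.364 and 0.408 across genes for the 3 pairs of groups, so values with the number as a block stand beside the tumour results whose call they change. The tests were run on simulated data with known changes. The simulated libraries of a table shared their gene means apart from depth and those changes. Differences in RNA of other cells between libraries were thus not covered.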

Additional observations from a re-analysis of the deposited data

How the results depend on the processing

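The counts of members called moved with the tool, the filter and the library left out, and not with RLE or upper-quartile scaling. They did not move with a filter of at least 50 counts in 2 libraries either, which left 7 members to test in the thymus, without Gzmc, Gzmk and Gzmm, and 10 in the tumour table. In ILTCkP over CD8SP edgeR called 0, DESeq2 3, a fit with no filter on low counts 3 (2535 genes), and leaving out each library 0 to 5 (592 to 7019 genes). In NK1.1+ ILTCk over PD1+ Tconv edgeR called 0, DESeq2 5, limma-voom 1, no filter 3 (1249 genes), scaling to 6 T cell genes 2, scaling to 3 CD3 genes 1, and leaving out each library 0 to 1. In NK1.1- ILTCk over PD1+ Tconv DESeq2 called 2 and no filter 3 (799 genes). In NK1.1+ over NK1.1- ILTCk DESeq2 called 1 and no filter 1 (167 genes). The cause was not tested.

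The thymic groups share only a replicate number, and the deviations of their same-numbered libraries correlated at 0.192 across genes. With the replicate block edgeR called 2 members (Gzmk and Srgn, adjusted p of 0.00845 and 0.0471) and 2212 genes in ILTCkP over CD8SP, 3 members and 755 genes in NK1.1+ ILTCk over PD1+ Tconv, 2 members and 298 genes in NK1.1- ILTCk over PD1+ Tconv, and 0 of both in NK1.1+ over NK1.1- ILTCk. With the block the log2 fold change of Gzmb in NK1.1- ILTCk over PD1+ Tconv was 0.0019 and that of Prf1 in NK1.1+ over NK1.1- ILTCk was -0.25.

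Other uncalled changes turned sign with the scale. With 6 T cell genes and with 3 CD3 genes, NK1.1+ ILTCk over PD1+ Tconv had 1.34 and 1.14 for Gzma, 1.54 and 1.34 for Srgn, and 0.89 and 0.67 for Ctsw. NK1.1- ILTCk over PD1+ Tconv had 0.37 and 0.32 for Gzma, 1.28 and 1.24 for Gzmb, 0.39 and 0.31 for Gzmm, 1.05 and 0.99 for Srgn, and 0.55 and 0.48 for Ctsw. NK1.1+ over NK1.1- ILTCk had -0.28 and -0.44 for Prf1, and -0.11 with the CD3 genes for Nkg7. Upper-quartile scaling gave 0.056 for Gzma in NK1.1+ ILTCk over PD1+ Tconv and -0.0052 for Prf1 in NK1.1+ over NK1.1- ILTCk, where limma-voom gave -0.23. Leaving out each library, values that changed sign ran, in ILTCkP over CD8SP, over -0.59 to 0.030 for Gzma and -0.066 to 0.22 for Nkg7. In NK1.1+ ILTCk over PD1+ Tconv they ran over -1.18 to 0.74 for Gzma, -0.70 to 2.74 for Gzmb, -0.61 to 0.29 for Srgn and -1.79 to 0.51 for Ctsw. In NK1.1- ILTCk over PD1+ Tconv they ran over -1.20 to 1.30 for Gzmb and -0.30 to 4.16 for Gzmc. In NK1.1+ over NK1.1- ILTCk they ran over -0.27 to 2.20 for Gzmb, -1.21 to 0.73 for Prf1, -1.02 to 1.29 for Nkg7 and -0.77 to 1.53 for Ctsw. In all, 24 of the values under other settings and 19 of those without a library were of the opposite sign. The direction of Gzmk held in every alternative and comparison run. Having 2 libraries per group, and counts near the floor for Gzmk in ILTCkP, limit what these values can show.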
